A study of Mus musculus with 11 samples.

Results

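The genes described here are 10 transporters and channels that move ions and water across the airway lining: the anion exchanger Slc26a4, the chloride channels Cftr and Ano1, the chloride loader Slc12a2, the 3 sodium channel subunits Scnn1a, Scnn1b and Scnn1g, and the water channels Aqp3, Aqp4 and Aqp5. They were taken by the gene name of each probe in the scanner files, where Ano1 carries its older name Tmem16a. All 10 were measured, among 21875 genes with a probe above background. Total RNA of mouse lung was hybridised to 11 1-colour Agilent arrays. There were 3 arrays of littermate controls given saline (wild-type saline), 2 of Foxa3 knockouts given saline (knockout saline), 3 of littermate controls given OVA (wild-type OVA) and 3 of Foxa3 knockouts given OVA (knockout OVA). OVA is, as background, the egg protein ovalbumin, used to provoke allergic airway inflammation in mice, and Foxa3 is a forkhead transcription factor. The labels used here give no strain, age, sex, dose or schedule, do not say how the knockout was made, and do not say whether each lung sample is 1 animal, so the p-values measure the spread between these samples.

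Airway surface liquid is kept at its depth by a balance between anions that are secreted and sodium that is absorbed, with water following through aquaporins. Chloride enters epithelial cells at the base through Slc12a2 and leaves at the airway surface through Cftr, which opens with cyclic AMP, or Ano1, which opens with calcium, while Slc26a4 (pendrin) trades chloride for bicarbonate and other anions. The epithelial sodium channel, built from the alpha, beta and gamma subunits that Scnn1a, Scnn1b and Scnn1g encode, takes sodium up from the surface. Aqp5 lies in the apical membrane of alveolar type I and gland cells, Aqp4 in the basolateral membrane of airway epithelium and Aqp3, which also passes glycerol, in basal cells.

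The arrays lay on 3 slides. Slides 1 and 2 held 1 array of each group, and slide 3 lacked a knockout saline array. In a principal component analysis of all genes, challenge lay along component 1 (46.3% of the variance) and slide 1, with 4 arrays, lay apart on component 2 (15.8%). Among the OVA arrays, wild-type OVA 1 and knockout OVA 2 lay nearest to the saline arrays on component 1 (13.2 and 13.6, against 43.3 to 66.3 for the other 4). Between 71.16% and 78.87% of probes were well above background on each array, and the number of arrays limits the precision. All 6 wild-type arrays gave a Foxa3 signal well above background and 0 of the 5 knockout arrays did; the labels do not say which part of the gene was deleted.

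The stretches of 250 bases before the transcription starts of Slc26a4 and Aqp3 are shown because these were the 2 members called higher with OVA. Slc26a4 was called in both genotypes and Aqp3 in knockout alone. The sequences are RefSeq's (GRCm38.p6), 5′ to 3′ on the gene's strand, and capitals mark TATAAA, the core of a TATA box, which sits 31 to 26 bases before the start in Slc26a4 and 29 to 24 bases before it in Aqp3.
Slc26a4, chr12:31559985-31560234, minus strand: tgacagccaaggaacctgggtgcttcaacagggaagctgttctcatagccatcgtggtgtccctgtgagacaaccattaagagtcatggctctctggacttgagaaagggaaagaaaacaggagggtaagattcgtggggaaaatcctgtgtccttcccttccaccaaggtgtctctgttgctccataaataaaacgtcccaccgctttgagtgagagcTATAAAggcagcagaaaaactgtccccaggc
Aqp3, chr4:41098184-41098433, minus strand: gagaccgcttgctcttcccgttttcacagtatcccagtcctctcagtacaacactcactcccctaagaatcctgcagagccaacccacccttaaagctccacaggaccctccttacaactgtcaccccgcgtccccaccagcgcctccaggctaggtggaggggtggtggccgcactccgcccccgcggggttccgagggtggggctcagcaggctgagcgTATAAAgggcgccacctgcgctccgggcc

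The window was found for 7 of the 10 members (Scnn1a, Slc12a2 and Aqp4 had no entry), and TATAAA was found on either strand in 2 of those 7. Of 32851 RefSeq windows of the same length, 12.4% held TATAAA on either strand, and 1.99% held it on the gene's strand starting 40 to 20 bases before the start, as both of these do. G and C made up 49.6% of the Slc26a4 window and 64% of the Aqp3 window. Both strands were also searched for TTC and GAA with 4 bases between them (STAT6), TTCNNNGAA (other STATs), TGTTTAC (forkhead factors) and AGAACA (a steroid receptor half-site), held by 5.85%, 7.02%, 3.17% and 16.1% of all windows. None of the 7 members' windows held any of these except that of Slc26a4, with AGAACA on the opposite strand 213 to 208 bases before the start. No match says only that these letters are not in these 250 bases, and a match is not evidence of binding.

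Each gene was measured by its brightest probe, and its level on an array is the log2 signal minus that array's 75th percentile. A difference of 1 on this scale is a 2-fold change, and levels of different probes cannot be set against each other. Differences are given with their standard error from 1 limma model over the 11 arrays, and a gene is said to have risen or fallen where its adjusted p, by Benjamini-Hochberg over 21875 genes, was under 0.05. In whole lung, fewer cells of a type and less RNA per cell cannot be told apart.

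**Figure D1:**
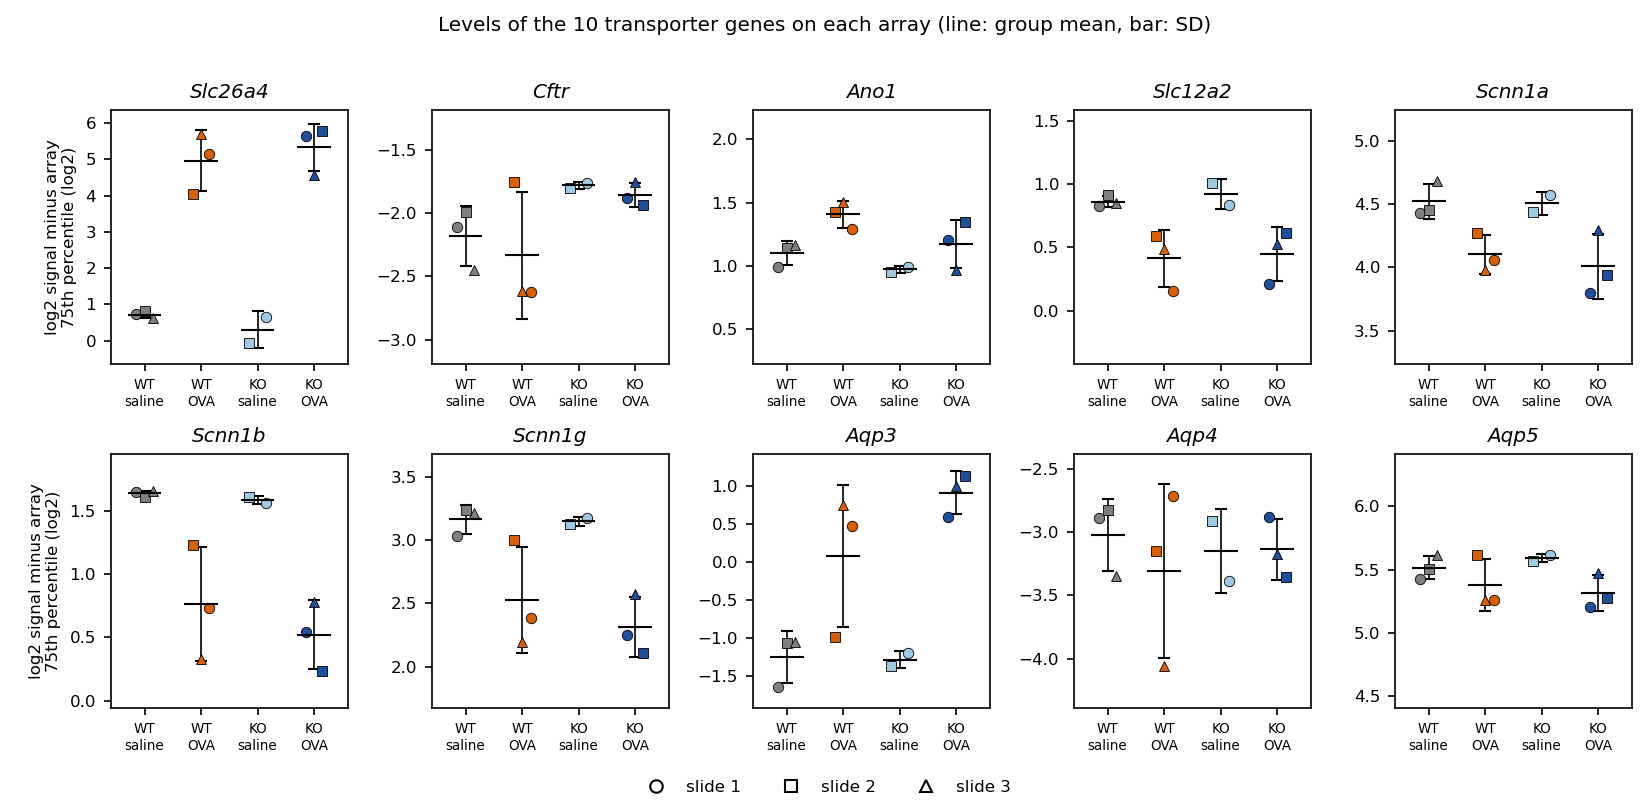
Level of each of the 10 genes on each array (vertical axis, log2 signal minus the array's 75th percentile) by group (horizontal axis; WT, wild type; KO, Foxa3 knockout). Points are arrays, shaped by slide, lines are group means and bars are SDs; the Slc26a4 level is 4.04 to 5.76 on every OVA array and at most 0.81 on every saline array.

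OVA raised Slc26a4 more than any other member, in both genotypes. Its probe (mm7 chromosome 12, 29359649 to 29359708, minus strand) read 0.72, 0.81 and 0.63 in wild-type saline and -0.05 and 0.67 in knockout saline. After OVA it read 4.04, 5.69 and 5.14 in wild type and 5.63, 4.58 and 5.76 in knockout. The 6 OVA arrays all lay above the 5 saline arrays, and the lowest in each genotype were wild-type OVA 1 and knockout OVA 2. The group means were 0.72 ± 0.09 (SD, n = 3), 0.31 ± 0.51 (SD, n = 2), 4.96 ± 0.84 (SD, n = 3) and 5.32 ± 0.65 (SD, n = 3) for wild-type saline, knockout saline, wild-type OVA and knockout OVA. The rise was 4.23 ± 0.44 in wild type (18.8-fold, limma adjusted p 0.00137) and 5.01 ± 0.49 in knockout (32.3-fold, limma adjusted p 0.00209). Within slides 1, 2 and 3 it was 4.42, 3.23 and 5.06 in wild type, and 4.96 and 5.81 within slides 1 and 2 in knockout. With slide as a block it remained past the threshold (limma adjusted p 0.00606 and 0.0115). Only the loss of a whole slide ended a call: without slide 1 the rises were 4.14 and 5.22 (limma adjusted p 0.124 and 0.177), and without slide 2 the knockout rise was 4.44 (limma adjusted p 0.0863).

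The anion channels moved little beside it. Cftr, read by a probe spotted 10 times per array (mm7 chromosome 6, 18262943 to 18263002, plus strand), was -2.11, -1.99 and -2.45 in wild-type saline and -1.75, -2.62 and -2.62 in wild-type OVA. In the knockouts it was -1.80 and -1.76 after saline and -1.88, -1.75 and -1.93 after OVA. The challenged and unchallenged arrays overlapped in each genotype. The OVA differences of -0.15 ± 0.23 in wild type and -0.08 ± 0.26 in knockout were smaller than their errors (limma adjusted p 0.683 and 0.88).

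Ano1, measured by a probe at mm7 chromosome 7, 141014348 to 141014407, minus strand, was 0.99, 1.15 and 1.17 in wild-type saline and 1.43, 1.50 and 1.30 in wild-type OVA. The 3 OVA arrays lay above the 3 saline arrays. In knockout it was 0.95 and 0.99 after saline and 1.20, 0.97 and 1.35 after OVA, where knockout OVA 2 fell between the saline arrays. The differences, 0.31 ± 0.12 and 0.20 ± 0.13, did not pass (limma adjusted p 0.0947 and 0.338).

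Slc12a2, which loads chloride into the cell, was lower on every OVA array than on any saline array. It read 0.82, 0.91 and 0.85 in wild-type saline, 1.00 and 0.84 in knockout saline, 0.59, 0.49 and 0.16 in wild-type OVA and 0.21, 0.52 and 0.61 in knockout OVA. The differences were -0.45 ± 0.14 in wild type (limma adjusted p 0.0583) and -0.47 ± 0.16 in knockout (limma adjusted p 0.0937), neither past the threshold. Within slides 1, 2 and 3 the wild-type difference was -0.67, -0.32 and -0.36, and with slide as a block it passed (limma adjusted p 0.0422).

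All 3 subunits of the epithelial sodium channel were lower after OVA, and the beta subunit passed the test in both genotypes. Scnn1b (probe at mm7 chromosome 7, 117842335 to 117842394, plus strand) lay within a narrow range in the saline arrays: 1.64, 1.61 and 1.65 in wild type and 1.60 and 1.56 in knockout. It read 1.23, 0.33 and 0.73 in wild-type OVA and 0.54, 0.78 and 0.24 in knockout OVA. Every OVA array was below every saline array, with wild-type OVA 1 the closest to them. Scnn1b fell by 0.87 ± 0.22 in wild type (1.83-fold lower, limma adjusted p 0.0275) and by 1.06 ± 0.24 in knockout (2.09-fold lower, limma adjusted p 0.0333). Within slides 1, 2 and 3 the wild-type difference was -0.91, -0.38 and -1.32, and in knockout it was -1.02 and -1.37 within slides 1 and 2.

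Scnn1b was lower after OVA in every fit made, but the call depended on the fit. With slide as a block the limma adjusted p was 0.0534 in wild type and 0.0837 in knockout. With only the groups compared it was 0.0643 and 0.0705. It was 0.0899 in knockout with replicate number as a block, and 0.14 in wild type without slide 3. Without slide 1 the differences were -0.85 in wild type and -1.10 in knockout. Without slide 2 they were -1.12 and -0.90. Both of these fits leave 1 knockout saline array. In wild type the call ended without wild-type saline 1, 2 or 3 (limma adjusted p 0.0734, 0.0799 and 0.0714) and without wild-type OVA 2 or 3 (0.0849 and 0.0867). In knockout it ended without knockout saline 1 or 2 (0.182 and 0.15), knockout OVA 1 or 3 (0.0816 and 0.105), each wild-type saline array (0.052 to 0.0582) and wild-type OVA 3 (0.0558).

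Scnn1g, whose probe lies on the same chromosome (mm7 chromosome 7, 117690298 to 117690357, plus strand), was 3.03, 3.24 and 3.21 in wild-type saline and 3.12 and 3.17 in knockout saline. After OVA it was 3.00, 2.19 and 2.39 in wild type and 2.25, 2.57 and 2.11 in knockout. No OVA array reached a saline array, although wild-type OVA 1 lay just below the lowest of them. The differences of -0.64 ± 0.20 and -0.84 ± 0.23 did not pass (limma adjusted p 0.0587 and 0.0568). Without wild-type OVA 1 the wild-type difference was -0.87 (limma adjusted p 0.0065).

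Scnn1a, the alpha subunit, was read by 2 probes. The brighter one (mm7 chromosome 6, 125371128 to 125371187, plus strand) gave 4.43, 4.45 and 4.68 in wild-type saline, 4.44 and 4.57 in knockout saline, 4.27, 3.98 and 4.06 in wild-type OVA and 3.80, 4.29 and 3.94 in knockout OVA. The differences were -0.42 ± 0.15 and -0.49 ± 0.17 (limma adjusted p 0.0772 and 0.091). The dimmer probe gave -0.85 ± 0.21 in wild type and -0.92 ± 0.23 in knockout, both past the threshold in a fit over all probes kept (limma adjusted p 0.0286 and 0.0476). On both probes every OVA array lay below every saline array. The 2 probes thus shared a direction and differed in size and in the call.

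The dimmer Scnn1a probe is shown because its call differed from that of the brighter one, and a further Cftr probe because it was not well above background, each as deposited, 5′ to 3′, with no bases marked. The 60 bases of the Scnn1a probe align over 205 bases of chromosome 6, so it crosses a junction between exons. The Cftr probe was well above background on 0 of 11 arrays and enters no result.
Scnn1a probe, mm7 chr6:125369357-125369561, plus strand: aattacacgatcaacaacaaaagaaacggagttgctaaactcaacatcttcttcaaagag
Cftr probe, mm7 chr6:18208199-18208258, plus strand: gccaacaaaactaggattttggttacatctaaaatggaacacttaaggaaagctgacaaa

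**Figure D2:**
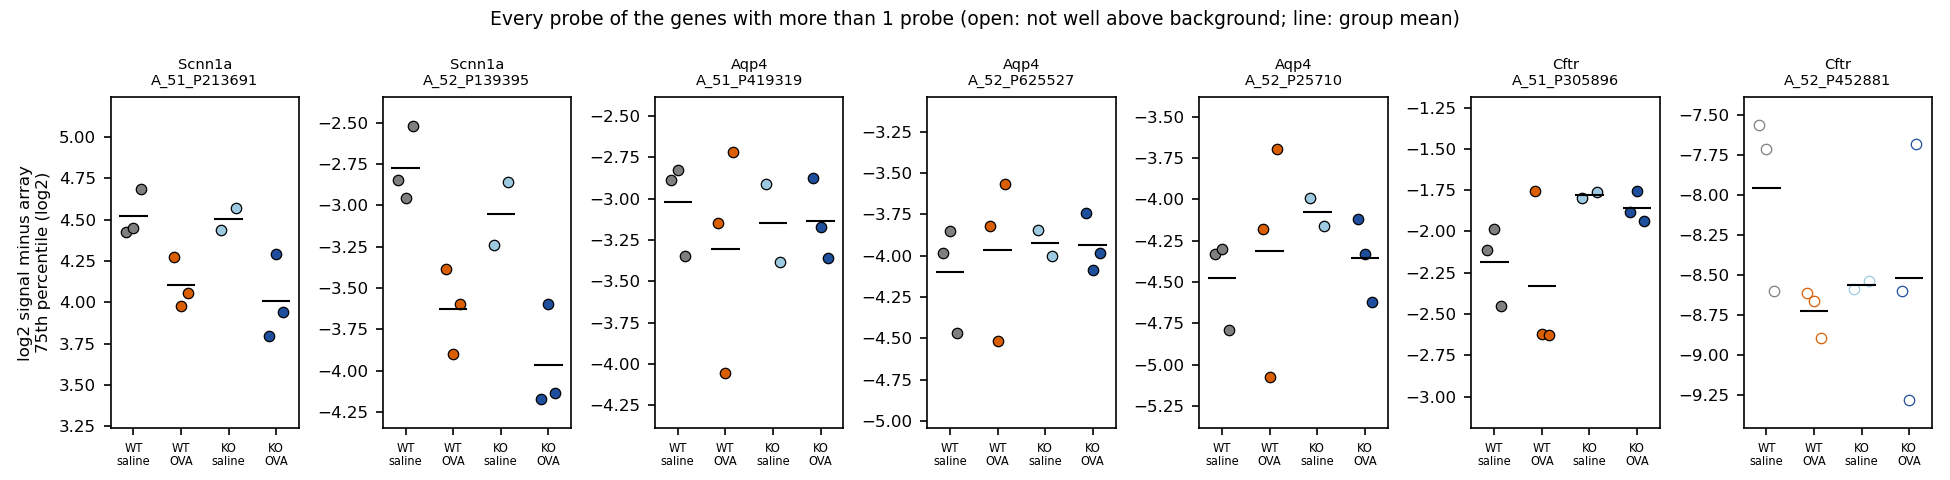
Level of each probe of the genes with more than 1 probe (vertical axis, log2 signal minus the array's 75th percentile) by group (WT, wild type; KO, Foxa3 knockout). Filled points are well above background, open points are not, and lines are group means; both Scnn1a probes are lower on the OVA arrays, and the Cftr probe with open points was not well above background on any array.

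Of the aquaporins among the members, Aqp3 alone passed the threshold, and only in knockout. Its probe (mm7 chromosome 4, 41231392 to 41231451, minus strand) read -1.65, -1.07 and -1.06 in wild-type saline and -1.37 and -1.21 in knockout saline. After OVA it read -0.99, 0.75 and 0.46 in wild type and 0.59, 0.99 and 1.13 in knockout. Wild-type OVA 1 stood next to the saline arrays, while the other 5 OVA arrays were at least 0.46. Aqp3 rose by 2.19 ± 0.45 in knockout (4.56-fold, limma adjusted p 0.0248), and its difference in wild type, 1.33 ± 0.41, did not pass (limma adjusted p 0.051). Within slides 1, 2 and 3 the wild-type difference was 2.11, 0.07 and 1.81, and in knockout it was 1.79 and 2.50 within slides 1 and 2. Without wild-type OVA 1 the wild-type rise was 1.86 (limma adjusted p 0.0025). It also passed with normexp background correction (0.0498), only probes well above background on all arrays (0.036), replicate number as a block (0.0314) and a trended robust prior (0.0298). Most other fits left it short, among them slide as a block (0.0651) and the authors' value table (0.0659). The knockout rise was 2.43 without slide 1 and 2.00 without slide 2, which each leave 1 knockout saline array. The knockout call ended with slide as a block (2.03, limma adjusted p 0.0608) and without knockout saline 1 or 2 or knockout OVA 1 or 3 (0.16, 0.117, 0.0515 and 0.0867).

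Aqp5 changed little against its spread. It was 5.43, 5.51 and 5.61 in wild-type saline, 5.57 and 5.62 in knockout saline, 5.62, 5.26 and 5.26 in wild-type OVA and 5.20, 5.47 and 5.28 in knockout OVA. The OVA arrays lay below the saline arrays in knockout and overlapped them in wild type. The differences were -0.14 ± 0.13 and -0.28 ± 0.14 (limma adjusted p 0.464 and 0.22). Its probe lies at mm7 chromosome 15, 99579945 to 99580003, plus strand.

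Aqp4 had 3 probes, all well above background on 11 of 11 arrays, and they did not share a direction. The brightest read -2.89, -2.83 and -3.35 in wild-type saline, -2.91 and -3.38 in knockout saline, -3.15, -4.06 and -2.72 in wild-type OVA and -2.88, -3.17 and -3.36 in knockout OVA, with overlap throughout. In wild type the OVA difference was -0.29 ± 0.32 for this probe and 0.16 and 0.13 for the others. In knockout it was 0.01 ± 0.36, against -0.28 and -0.02 for the others. None passed.

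**Figure D3:**
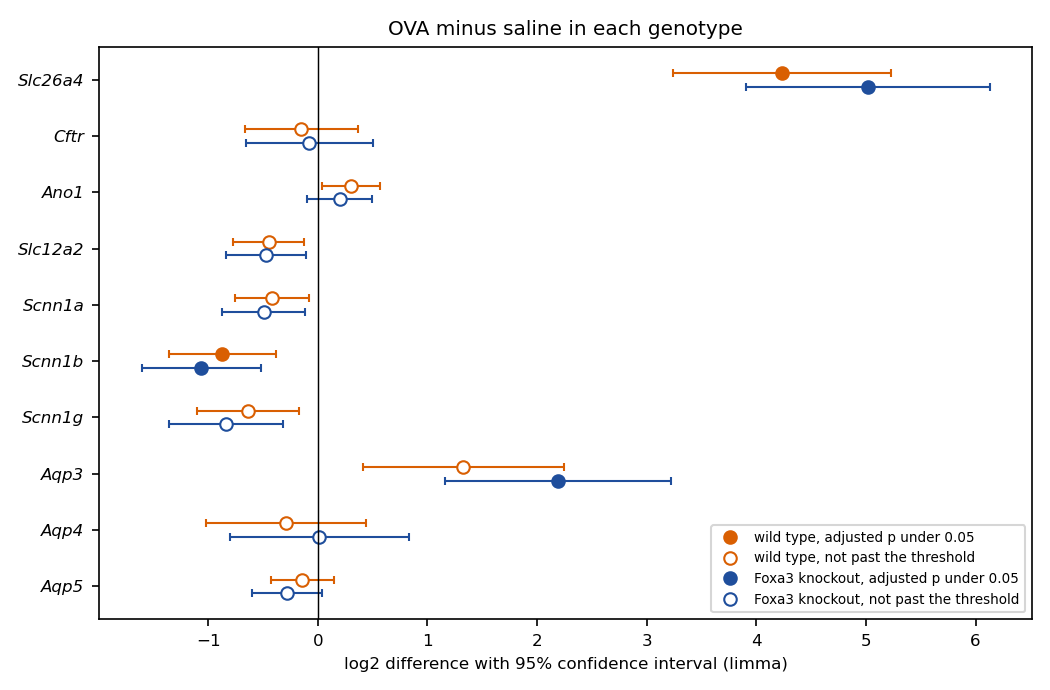
OVA minus saline for the 10 genes in each genotype (horizontal axis, log2 difference), with 95% confidence intervals from limma; filled points passed an adjusted p under 0.05. Slc26a4 and Scnn1b are filled in both genotypes and Aqp3 in the knockout alone, which is not a test of a difference between genotypes.

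Counted together, 1 member rose and 1 fell with OVA in wild type, 2 of 10 where 18.8% of all genes were called (10.9% higher and 7.9% lower). In knockout 2 rose and 1 fell, 3 of 10 where 8.23% of all genes were called (6.45% higher and 1.78% lower). The knockout count was 1 with slide as a block, where 845 genes were called in place of 1801, 0 without slide 1 or slide 2, and 1 to 5 with 1 array left out. The wild-type count was 0 without slide 1, 1 without slide 3 and 1 to 6 with 1 array left out. At an unadjusted p under 0.05 there were 7 members in wild type, against 36.5% of all genes, and 6 in knockout, against 30.2%. Groups did not overlap for 7 members in each genotype, against 42.7% of all genes in wild type and 48.9% in knockout. They were 3 higher and 4 lower in wild type (22.2% and 20.5% of all genes) and 2 higher and 5 lower in knockout (24.4% and 24.5%). The median member difference was -0.22 in wild type and -0.18 in knockout, where all genes had medians of 0.02 and -0.01. Both OVA comparisons are separate sets of arrays, but the model shares their spread. The members varied more between arrays after OVA than after saline. The median SD over the 10 genes was 0.10 in wild-type saline and 0.06 in knockout saline, and 0.43 in wild-type OVA and 0.24 in knockout OVA. No such SD over all genes is given beside these. On component 1 over all genes, the OVA arrays were also the more spread (13.2 to 66.3, against -59.3 to -45.2 for saline). The limma errors and intervals take 1 spread per gene over all groups, so they do not follow these unequal SDs. Between the OVA groups they may therefore be too narrow.

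The 2 OVA arrays nearest to saline over all genes were also nearest for most members. Within its group, wild-type OVA 1 had the lowest Slc26a4 and Aqp3 and the highest Scnn1a, Scnn1b, Scnn1g, Slc12a2, Cftr and Aqp5. Knockout OVA 2 had the lowest Slc26a4 and Ano1 and the highest 3 sodium channel subunits, Cftr and Aqp5. The measured goblet cell genes did not order the wild-type arrays in this way. Each was lowest in wild-type OVA 2, where Slc26a4 was highest (5.69): Agr2 (2.51), the mucin gene Muc5b (2.89), Tff2 (0.80), Clca1 (6.95) and Gp2 (-1.67). In wild-type OVA 1, Tff2 (1.62) and Clca1 (7.22) were highest, and Agr2 (2.81), Muc5b (3.41) and Gp2 (-1.10) were the middle ones. In knockout, Agr2 was lowest in knockout OVA 2 (2.92), as were Muc5b (3.52) and Gp2 (-2.32). The other measured goblet cell genes were not: in knockout OVA 2, Clca1 was the middle one (7.03) and Tff2 the highest (1.74). Without wild-type OVA 1, 6 members were called in wild type, where 6264 genes were called in place of 4108: Slc26a4 (4.69) and Aqp3 rose, while Scnn1b (-1.11), Scnn1g, Slc12a2 (-0.54) and Scnn1a (-0.50) fell, the last with a limma adjusted p of 0.0491. Without knockout OVA 2, 5 members were called in knockout, 2 higher and 3 lower, where 3307 genes were called in place of 1801. What set these arrays apart was not tested.

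No member passed the threshold between Foxa3 knockout and wild type, whether after saline, after OVA or in the difference between the OVA effects. Across all genes, 0.096% were called between genotypes after saline, 0.21% after OVA and 0.00457% for the difference of the OVA effects. The counts of members at an unadjusted p under 0.05 were 0 in all 3 limma comparisons, against 3.26%, 5% and 2.59% of all genes in the same order, and 0 members were called under every other fit made. Groups did not overlap for 3 members after saline, against 21.5% of all genes: Cftr was higher (10.8% of all genes) and Ano1 and Scnn1b were lower (10.7%) in knockout. After OVA no member's groups were apart, against 8.23% of all genes.

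Slc26a4 differed between knockout and wild type by -0.41 (95% interval -1.53 to 0.70) after saline and by 0.37 (-0.63 to 1.36) after OVA, so differences of more than 2-fold remain within range. Within slides 1, 2 and 3 its OVA value was 0.49, 1.72 and -1.11. Its rise was 0.78 ± 0.66 larger in knockout (95% interval -0.71 to 2.27, limma adjusted p 1). For Scnn1b the genotype difference was -0.05 (-0.60 to 0.49) after saline and -0.24 (-0.73 to 0.25) after OVA.

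Aqp3 had the largest difference between genotypes among the members after OVA, 0.83 ± 0.41 (95% interval -0.09 to 1.75, unadjusted p 0.0715). It was 2.12 on slide 2, which holds wild-type OVA 1, beside 0.12 on slide 1 and 0.24 on slide 3. Its rise with OVA was 0.86 ± 0.61 larger in knockout (95% interval -0.52 to 2.24, limma adjusted p 1). Cftr read 0.40 ± 0.26 higher in knockout after saline and 0.48 ± 0.23 higher after OVA, where the unadjusted p was 0.0679. By slide the Cftr difference after OVA was 0.74, -0.18 and 0.87, so slide 2 went the other way. Ano1 read 0.24 lower in knockout after OVA, with -0.09, -0.08 and -0.53 on slides 1, 2 and 3, and 0.13 lower after saline. For the other members, Slc12a2, Scnn1a, Scnn1g, Aqp4 and Aqp5, the differences on the brightest probes ran from -0.21 to 0.17 over both challenges. The dimmer Scnn1a probe averaged -2.77 in wild-type saline and -3.05 in knockout saline, and -3.63 and -3.97 after OVA. The dimmer Aqp4 probes averaged -4.47 and -4.10 in wild-type saline and -4.08 and -3.92 in knockout saline. After OVA they averaged -4.31 and -3.97 in wild type and -4.36 and -3.94 in knockout.

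**Figure D4:**
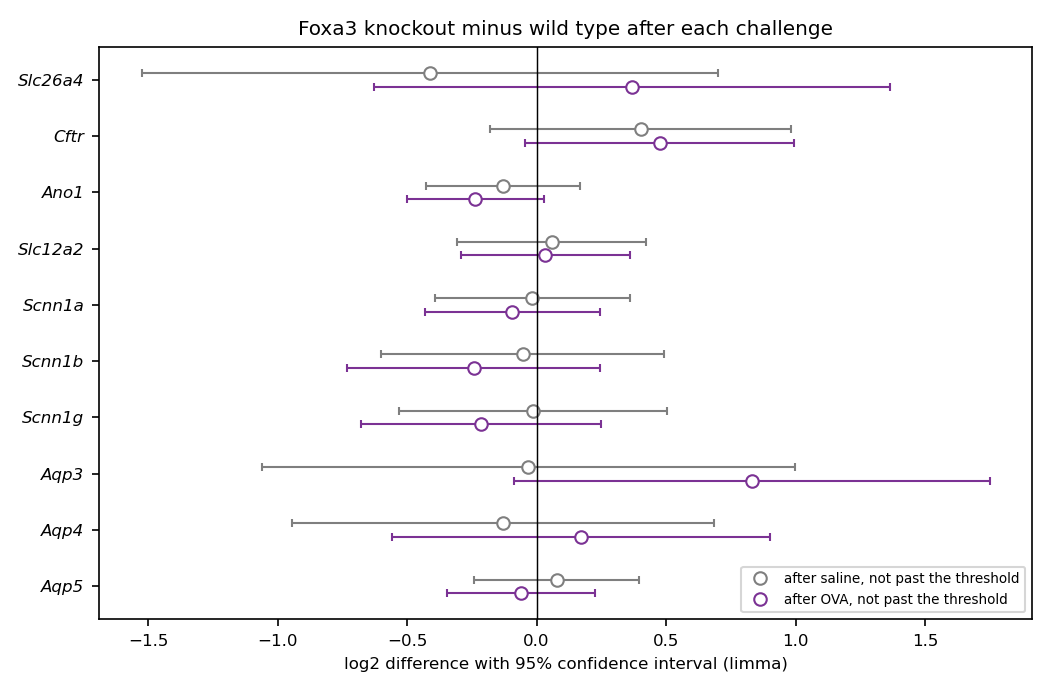
Foxa3 knockout minus wild type for the 10 genes after saline and after OVA (horizontal axis, log2 difference), with 95% confidence intervals from limma. Every interval includes 0 and no point passed an adjusted p under 0.05; those of Slc26a4 and Aqp3 are the widest.

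The wider set of airway ion transport genes was taken from 5 lists of 114 genes, 101 of them measured. With OVA in wild type 13 rose and 9 fell, 21.8% of those measured against 18.8% of all genes. In knockout 5 rose and 1 fell, 5.94% against 8.23%. The median difference was -0.06 in wild type and 0.00 in knockout, close to those of all genes. No gene of these lists was called between genotypes or in the difference of effects. These counts moved with single arrays and with slide. In wild type they ran from 2, without wild-type OVA 3, to 37, without wild-type OVA 1, and 13 genes were called with slide as a block. In knockout they ran from 0, without knockout saline 1, to 20, without wild-type OVA 1, and 3 were called with slide as a block.

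Among the 17 measured genes that control the sodium channel, 1 rose and 2 fell in wild type, and 1 rose in knockout. Tmprss4, a membrane protease that cleaves and activates the channel, was 0.99 to 1.14 in wild-type saline and 1.93 to 2.15 in wild-type OVA. It was 1.11 to 1.13 in knockout saline and 1.83 to 2.21 in knockout OVA, with a wide gap between challenges in both genotypes. It rose by 1.02 in wild type and 0.93 in knockout (limma adjusted p 0.00216 and 0.00634). Prss8 (prostasin), another protease that activates the channel, fell by 0.79 in wild type (limma adjusted p 0.0431), and its difference in knockout was -0.81 (0.0777). Bpifa1, a secreted airway protein that reduces the channel's activity, fell by 1.02 in wild type (limma adjusted p 0.0266). In knockout its difference was -0.26 (limma adjusted p 0.581), and the difference between these effects, 0.76 ± 0.37, did not pass (limma adjusted p 1).

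Of the 34 measured genes of chloride and bicarbonate transport, 4 rose and 3 fell in wild type and 0 were called in knockout. Clca1, a secreted protein that increases Ano1 currents and is made by goblet cells, ranged from 3.28 to 5.57 in wild-type saline and from 6.95 to 7.22 in wild-type OVA. The saline arrays were thus far more spread than the challenged ones. It rose by 2.55 in wild type (limma adjusted p 0.0158), and its difference in knockout was 2.17 (0.0545). The anoctamin Ano9 rose by 1.18 and the sodium-driven bicarbonate exchanger Slc4a8 by 0.82 in wild type (limma adjusted p 0.0344 and 0.0293), with differences of 1.32 and 0.81 in knockout (0.0513 and 0.0624). Lrrc8a, a subunit of volume-regulated anion channels, fell by 0.61 in wild type (limma adjusted p 0.0384), with -0.53 in knockout (0.104).

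Among 23 measured potassium channels and pump subunits, 4 rose and 2 fell in wild type, and 2 rose in knockout. Fxyd4, a small partner of the sodium-potassium pump, was -2.27 to -2.07 in wild-type saline and -0.15 to 2.66 in wild-type OVA, with wild-type OVA 1 again the lowest. It was -2.32 to -1.76 in knockout saline and 1.17 to 2.88 in knockout OVA. It rose by 3.52 in wild type and 4.29 in knockout (limma adjusted p 0.0125 and 0.0126). The calcium-activated potassium channel Kcnn4 rose by 1.95 and 2.07 (limma adjusted p 0.0083 and 0.0146). Fxyd5, another pump partner, rose by 0.78 in wild type (limma adjusted p 0.0145) and the leak channel Kcnk2 fell by 1.18 (0.0304). In knockout their differences were 0.52 and -1.14 (limma adjusted p 0.0919 and 0.0667).

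Of 20 measured regulators of secretion, 3 rose and 2 fell in wild type, and 2 rose in knockout. The nucleotide receptor P2ry6 rose by 1.64 in wild type and 1.87 in knockout (limma adjusted p 0.0196 and 0.0289). The adenosine receptor Adora2b, which raises cyclic AMP, rose by 0.63 and 0.73 (limma adjusted p 0.0171 and 0.0243). The scaffold Slc9a3r2, which binds Cftr, fell by 0.69 in wild type (limma adjusted p 0.0263), with -0.72 in knockout (0.0507). The adenylyl cyclase Adcy9 fell by 0.46 in wild type (limma adjusted p 0.0369), with -0.28 in knockout (0.208). Of 7 other aquaporins measured, Aqp11 rose by 0.75 in wild type (limma adjusted p 0.0203), with 0.66 in knockout (0.0605). Aqp7 fell by 1.12 in knockout (limma adjusted p 0.0499), where 2 of 3 OVA arrays were well above background, and was -0.27 in wild type (0.507).

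**Figure D5:**
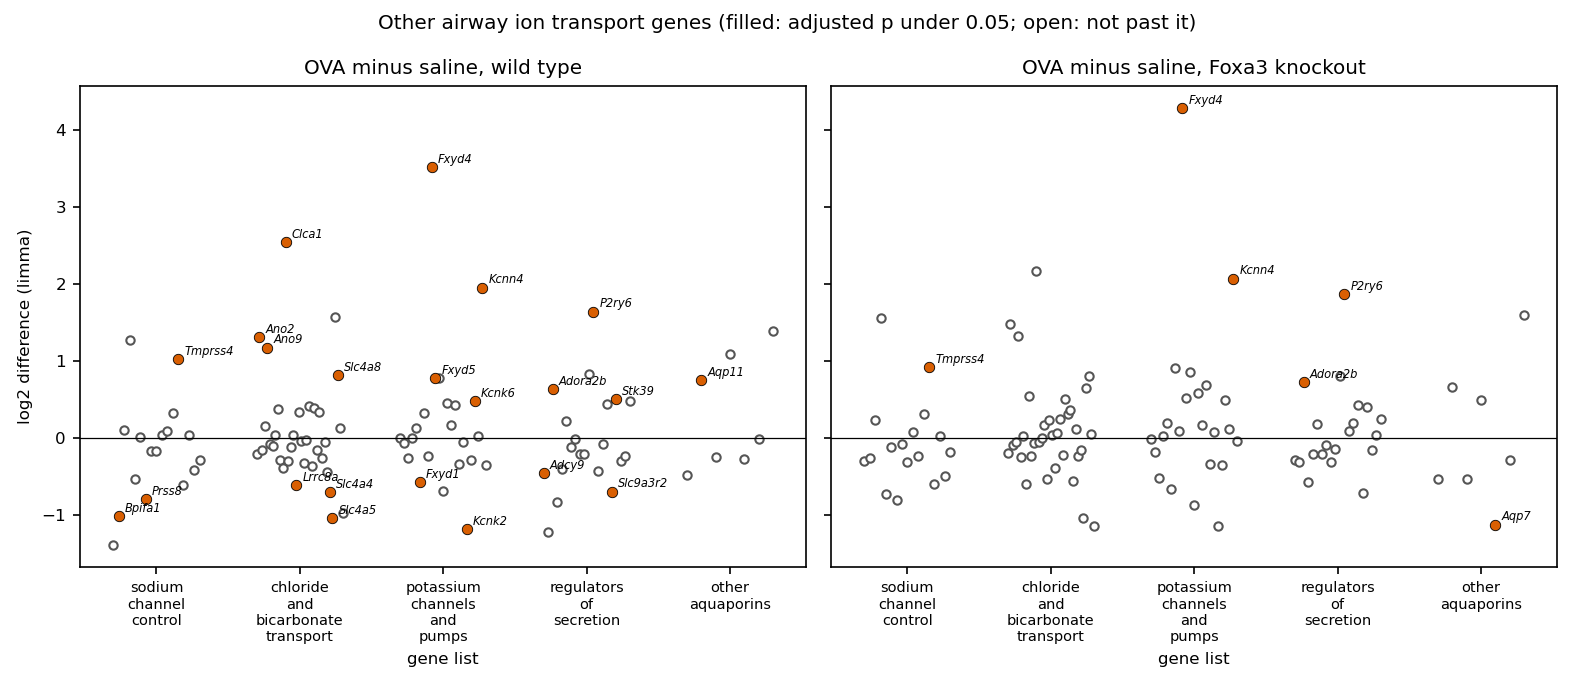
OVA minus saline for 101 other ion transport genes (vertical axis, log2 difference from limma) by gene list (horizontal axis), in wild type and in Foxa3 knockout. Filled, labelled points passed an adjusted p under 0.05; Fxyd4 is the highest in both panels.

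Markers of the cells that carry these transporters moved with OVA as well, and their part in the members' changes was not tested. The alveolar type II, alveolar type I, club, ciliated and endothelial lists were each measured in full. So were the macrophage, smooth muscle, cardiac muscle and red blood cell lists, so this is no test of the lung label. A gene counts as measured where its probe was well above background on 2 or more arrays. Beside the rise of Slc26a4, 4 of 5 goblet cell genes rose in wild type and 3 of 5 in knockout, among them Agr2 (2.66 and 3.60) and Muc5b (0.99 and 1.59). The summed goblet level, in multiples of each array's 75th percentile, was 16.3 to 55.7 in wild-type saline, 25.0 to 51.5 in knockout saline, 139 to 170 in wild-type OVA and 139 to 187 in knockout OVA. A sum over probes leans on the brightest of them: Clca1 made up 59.9% to 89.1% of this sum on each array. In the sums of the lists described next, Cav1 made up 45.7% to 50.9% (alveolar type I), Scgb1a1 33.3% to 58.8% (club) and Sftpc 62.4% to 69.5% (alveolar type II).

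Beside the lower sodium channel subunits, 0 of 5 alveolar type I genes passed in either genotype. Their median difference was -0.55 in wild type and -0.57 in knockout, but Pdpn went the other way (0.34 and 0.11). Their summed level was 177 to 185 in wild-type saline and 108 to 162 in wild-type OVA. In knockout it was 188 to 215 after saline and 112 to 171 after OVA. The endothelial list had medians of -0.61 and -0.56, so lower levels were not particular to the alveolar type I list. Of 4 club cell genes, 1 fell in wild type and 0 in knockout, with medians of -0.65 and -0.82. Their summed levels overlapped between challenges in wild type (544 to 598 after saline, 324 to 611 after OVA) and not in knockout (630 to 682 and 315 to 462). Of 5 ciliated cell genes 0 were called in either genotype, with medians of -0.15 and -0.09. Of 5 alveolar type II genes 1 fell in wild type and 0 in knockout, with medians of 0.07 and -0.18. Their summed level was higher after OVA without overlap in wild type (435 to 479 after saline, 523 to 663 after OVA) and overlapped in knockout (553 to 635 and 514 to 588).

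Macrophage genes rose in 4 of 4 cases in wild type and 2 of 4 in knockout, with a summed level of 9.44 to 11.3 in wild-type saline and 19.97 to 43.9 in wild-type OVA, 9.21 to 10.02 in knockout saline and 20.9 to 39.5 in knockout OVA. All 4 endothelial genes fell in wild type and 1 fell in knockout. Of 3 measured ionocyte genes 0 were called in any comparison, and the ionocyte factor Foxi1 was not measured. Of 3 gland genes 2 rose in each genotype. Of 5 smooth muscle genes 1 rose in knockout, of 4 cardiac genes 1 fell in wild type, and of 3 red blood cell genes 0 were called.

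The genes whose levels ran closest to the called members over the 11 arrays were sought among 14413 genes above background on all arrays. The arrays fall into 2 challenge clusters, so a high Pearson correlation mostly follows the challenge, and it is given as a description. For Slc26a4 they were Lrr1 (0.998), Sgo2a (0.997) and Timp1 (0.995). For Scnn1b they included Cyp2d9 (0.992) and Rd3 (0.989), and for Aqp3 they were Nup155 (0.981), Orc6 (0.978) and Trim36 (0.976).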

How the data were processed

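Total RNA of mouse lung was labelled with Cy3 and hybridised to 11 arrays, per the labels. Per the file headers, each deposited scanner file gives a background-subtracted, detrended intensity per spot from Feature Extraction, version 9.5.1.1 there and 9.1 in the submitters' processing notes, with mm7 coordinates. The authors' deposited value table holds log2 values and served as an alternative only; its normalization is not given in the sources used here.

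From these files, spots of a probe were averaged without outlier-marked spots (48 to 183 per array), taken as log2 and scaled by each array's 75th percentile over 41174 probes. A probe was kept if 2 or more of the 11 arrays read it well above background (32946 probes), and the brightest represented its gene. Names came from RefSeq by accession (22951 probes), current symbol (6659) or synonym (3109), while 8455 probes kept their deposited name. limma 3.58.1 (R 4.3.3) fitted 1 mean per group over 11 arrays for 5 comparisons, two-sided, with Benjamini-Hochberg adjustment over 21875 genes and a threshold of 0.05. The model was tested on simulated data with 66 or 67 genes changed at each of 3 sizes. For OVA in wild type it recovered 26.9% of 1.5-fold, 50.7% of 2-fold and 84.8% of 4-fold changes. In knockout these shares were 19.4%, 40.3% and 78.8%, so small changes were often missed in the simulation. The changed genes were few among 21750, and the noise had no slide effect and 1 spread per gene for all groups. Far more genes were called on the real arrays, so these shares may not hold for them. False calls numbered 11 in wild type and 4 in knockout. Summed marker levels are sums of 2 to the power of the scaled levels.

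The 10 members and all gene lists were chosen with earlier results of these data known. Named genes are every member, up to 4 called genes of each list by smallest p, and the 3 genes most correlated with each called member. Alternatives changed the background correction, scaling, probe filter, probe summary, blocks, groups fitted, variance prior and value table, and left out each array; fits without a whole slide were added after seeing the data. A gene whose levels ran close to those of Scnn1b is not reported here.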

Additional observations from a re-analysis of the deposited data

How the results depend on the processing

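There were 5 member differences called in the reported fit, and 32 of their 130 alternative fits lost the call. Of the 1160 alternative fits of the 45 differences that were not called, 37 gained it, and 0 called differences turned direction. The 2 members called with OVA in wild type became 6 with normexp background correction and with a trended robust prior, 5 with only probes well above background on all arrays and with the authors' value table, 4 with quantile scaling and 1 with only the groups compared. The count was 0 without slide 1 and 1 without slide 3. Leaving out 1 array gave 1 to 6. The 3 members called in knockout became 1 with slide as a block, 5 with the authors' value table, 0 without slide 1 or slide 2 and 5 without slide 3. Leaving out 1 array gave 1 to 5.

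The 22 other ion transport genes called in wild type became 13 with slide as a block, 8 with only the groups compared, 0 without slide 1, 13 without slide 2 and 1 without slide 3. Leaving out 1 array gave 2 to 37. The 6 called in knockout became 15 with normexp, with probes above background on all arrays and with the authors' value table, 18 with a trended robust prior, 3 with slide as a block, 1 with only the groups compared, 0 without slide 1 or slide 2 and 12 without slide 3. Leaving out 1 array gave 0 to 20. Calls over all genes moved too. The 4108 in wild type became 2717 with slide as a block, 2039 with only the groups compared, 27, 1874 and 521 without slides 1, 2 and 3, and 1052 to 6264 with 1 array left out. The 1801 in knockout became 845, 444, 13, 3 and 2341 in the same settings, 715 with the replicate block, 1185 with no filter on dim probes, 2771 with a trended robust prior, and 83 to 3307 with 1 array left out. Between genotypes, the 46 genes called after OVA ranged from 1 to 95 over all settings run, and the 21 after saline from 1 to 29. With the authors' deposited values, 2409 genes were higher and 2675 lower in wild type (2380 and 1728 in the reported fit) and 1641 and 1215 in knockout (1411 and 390 in the reported fit), where normexp gave 1446 and 808. Normexp also moved the median of all genes in wild type from 0.02 to 0.13. Between genotypes and for the difference of the OVA effects, 0 members were called under every setting run. The cause of these shifts was not tested; fits without a slide hold fewer arrays, and leaving out a knockout saline array leaves 1, which is then assumed to vary like the other groups.

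Replicate numbers recur in the groups, and the reported fit took them as no pairing. Arrays with the same number correlated in their deviations from -0.405 to 0.341 (15 pairs, 4 over 0.1). The deviations are centred within each group, which pushes some correlations below 0, and slide runs through them as well. These values therefore cannot exclude a pairing by number. With the replicate block 3 members were called with OVA in wild type, 2 in knockout and 0 in each genotype comparison, and 3 of the other ion transport genes in knockout. Arrays of 1 slide correlated from -0.158 to 0.478 (median 0.27, 12 of 15 pairs over 0.1), against a median of -0.16 and 7 of 30 pairs over 0.1 for arrays of different slides.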
